A study of Rattus norvegicus with 15 samples.

Results

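The 8 genes described here encode matricellular proteins of tissue repair: periostin (Postn), tenascin C (Tnc), SPARC (Sparc, also called osteonectin), 4 thrombospondins (Thbs1, Thbs2, Thbs3 and Thbs4) and osteopontin (Spp1). They were chosen by symbol as a family, with no threshold on a measured value but with earlier results of these data known, and each symbol matched 1 of the 37991 genes in the deposited table. All 8 passed the filter on low counts that left 17201 genes to test. Multifidus muscle, a deep muscle beside the spine, was taken from male Sprague Dawley rats described as wild type, 12 weeks old and 340 to 370 g in weight, and was measured by RNA sequencing in 15 libraries.

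Control rats had no injury and gave 2 libraries. Surgery rats had a hemilaminectomy in which the laminae of the vertebrae L5 and L6 and their facet joint were removed. The spinal nerve of L5 on the left side was ligated and, by the study's figure legends, also cut. Surgery rats received nothing afterwards and gave 2 libraries. The pMT group (4 libraries) had the same surgery and then an injection of pMT, mitochondria isolated from human plasma, at 25 µg per site and 50 µg per rat in a buffer. The VitD group (3 libraries) was injected after surgery with cholecalciferol, a form of vitamin D, at 150 µg per site and 300 µg per rat, and the pMT/VitD group (4 libraries) received both at these doses. Sites lay in the left paraspinal muscle at L4–L5 and L5–L6. The injection of pMT was on day 14 after surgery and tissue was taken on day 28, while the days of the VitD and pMT/VitD groups are not given in the sources used here. No group was injected with the buffer alone, so in pMT against Surgery the agent and its injection cannot be told apart, whereas both groups of pMT/VitD against VitD were injected. The labels do not say that each library came from another rat, so p-values measure the spread between libraries, which may be technical.

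Matricellular proteins are secreted into the extracellular matrix, where they bind collagen, fibronectin, growth factors and cell surface receptors and regulate cells more than they build structure. Most are low in resting adult tissue and rise after injury. In skeletal muscle they come from fibroblasts, tendon cells, macrophages, satellite cells and vessels, and they are known for parts in adhesion, fibre regeneration and fibrosis. In whole tissue, more cells of a type and more RNA per cell cannot be told apart.

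Total counts ranged from 52342134 to 73557878 per library. Summed levels of 7 myofibre markers, of which Acta1 was the most abundant, lay between 68827 and 103214 TPM (counts scaled by gene length and library total) in all libraries, as in muscle. Of 6 bone and cartilage markers, Acan was at 0 counts in every library and the summed level was at most 0.498 TPM, so bone markers were at or near 0. The 2 Surgery libraries lay close together, whereas VitD replicate 1 was the highest library for 6 of the 8 genes. The pMT replicate 4 stood apart from the other pMT libraries, and pMT/VitD replicate 4 from the other pMT/VitD libraries. A gene's deviation from its mean correlated with its length at −0.50 (rank correlation over 11399 genes) in pMT replicate 4 and at −0.58, −0.53 and −0.27 in pMT/VitD replicates 1 to 3, against 0.04 to 0.65 in pMT replicates 1 to 3 and 0.28 in pMT/VitD replicate 4. In the length trend, in Thbs1 and in tendon markers each of these 2 libraries was nearer to the other group, and whether their labels were exchanged could not be settled from the files. Groups follow the labels throughout, and results that turn on these replicates are given with and without them.

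Among the 6 members called across the groups, Postn, Tnc and Thbs4 had the largest fold changes, and Thbs1 was the thrombospondin that did not follow them, so their promoters are printed. Each is the stretch of 250 bases before the start of the gene in RefSeq (build GRCr8), 5′ to 3′ on the strand of the gene. Capitals mark exact matches, at any position, to TATAAA (letters of the TATA box) and CATTCC (the core bound by TEAD factors), searched on both strands. Other spellings, such as tatataag near the end of the Tnc stretch, were not searched.
Postn, chr2:140677811-140678060, strand plus: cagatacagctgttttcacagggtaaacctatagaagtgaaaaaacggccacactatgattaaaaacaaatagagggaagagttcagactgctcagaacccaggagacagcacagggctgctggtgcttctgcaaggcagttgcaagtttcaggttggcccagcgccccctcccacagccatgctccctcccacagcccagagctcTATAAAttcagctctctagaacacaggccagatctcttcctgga
Tnc, chr5:82476132-82476381, strand minus: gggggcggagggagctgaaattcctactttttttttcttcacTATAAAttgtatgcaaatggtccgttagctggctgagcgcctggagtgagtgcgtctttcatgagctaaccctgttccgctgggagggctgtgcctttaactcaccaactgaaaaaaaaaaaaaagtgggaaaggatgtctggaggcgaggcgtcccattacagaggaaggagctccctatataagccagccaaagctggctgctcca
Thbs4, chr2:25760346-25760595, strand minus: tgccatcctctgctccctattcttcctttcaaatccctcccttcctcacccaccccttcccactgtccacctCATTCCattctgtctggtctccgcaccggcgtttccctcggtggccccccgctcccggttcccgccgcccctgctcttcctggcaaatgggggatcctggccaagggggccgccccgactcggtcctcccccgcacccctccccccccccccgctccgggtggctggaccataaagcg
Thbs1, chr3:125510000-125510249, strand plus: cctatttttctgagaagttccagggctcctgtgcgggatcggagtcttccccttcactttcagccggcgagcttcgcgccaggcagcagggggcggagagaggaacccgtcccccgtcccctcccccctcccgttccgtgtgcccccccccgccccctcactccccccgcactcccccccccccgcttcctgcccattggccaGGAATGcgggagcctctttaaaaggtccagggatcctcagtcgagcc
RefSeq promoters were matched for 7 of the 8 genes, with Thbs2 not among them. TATAAA was found in Postn, where it began 44 bases before the start, in Tnc at 208 bases and in Spp1 at 204 bases, and 12.9% of 33465 promoters held it. CATTCC was found in Thbs4 at 178 bases, in Thbs1 at 47 and in Sparc at 33, against 12.1% of all promoters. TGANTCA, the AP-1 motif, was in none of the 7 and in 6.34% of all, and the CArG box was also in none of the 7 and in 1.5% of all. None of these motifs was shared by Postn, Tnc and Thbs4 and missing from Thbs1.

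Across the 5 groups, 6 of the 8 genes differed at an adjusted p under 0.05 (edgeR quasi-likelihood F-test over all 15 libraries, Benjamini-Hochberg over 17201 genes), against 11.8% of all genes tested. They were Postn, with an adjusted p of 0.000324, Thbs2 (0.000710), Tnc (0.00385), Thbs3 (0.00667), Thbs4 (0.00667) and Sparc (0.0130). Thbs1 (adjusted p = 0.763) and Spp1 (0.230) did not pass. Levels of the 6 genes were low in Control, pMT and pMT/VitD libraries and high in Surgery and VitD libraries.

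**Figure D1:**
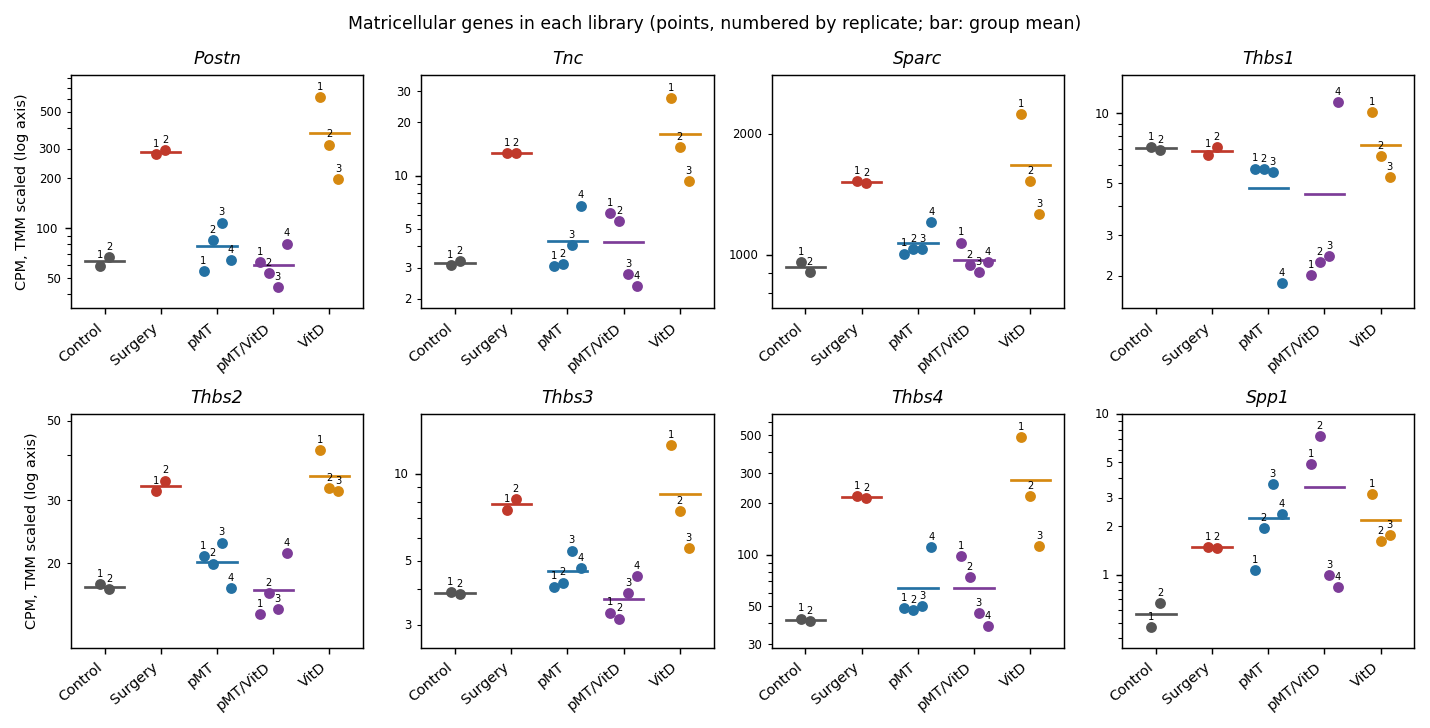
CPM of each of the 8 genes (counts scaled by TMM library size, log axis) in the 15 libraries, with points numbered by replicate and a bar at each group mean. Surgery and VitD libraries lay above the other groups for Postn, Tnc, Sparc, Thbs2, Thbs3 and Thbs4. However, pMT replicate 4 and VitD replicate 3 nearly met for Thbs4 at 111 and 113 CPM and for Sparc at 1206 and 1260 CPM. So did pMT replicate 3 and VitD replicate 3 for Thbs3, at 5.42 and 5.53 CPM.

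The first comparison asked what surgery alone changed. Postn and Thbs2 rose in Surgery against Control, which is 2 of 8 against 1.25% of all genes called higher. Another 5 had both Surgery libraries above both Control libraries without passing the adjusted test, and 66.1% of all genes had no overlap between these pairs. The median log2 fold change of the 8 genes was 1.20, and that of all genes tested was −0.01.

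Postn encodes periostin, a protein made by activated fibroblasts that binds collagen and integrins and promotes collagen crosslinking. Levels are given in CPM (counts scaled by TMM library size, for 1 gene between libraries). Postn stood at 59.6 and 67.3 CPM in Control, whereas Surgery gave 278 and 294 CPM. Both Surgery libraries were far above both Control libraries. The log2 fold change was 2.17 ± 0.44 (SE; 4.51-fold, adjusted p = 0.0282).

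Thbs2 encodes thrombospondin 2, which restrains vessel growth and shapes collagen fibrils. It stood at 17.5 and 16.9 CPM in Control and at 31.8 and 34.0 CPM in Surgery. The groups did not overlap, and replicates differed little within each. Its log2 fold change of 0.94 ± 0.19 (SE) was smaller than that of Postn but as well separated from 0 (adjusted p = 0.0282).

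Tenascin C is a hexameric glycoprotein of injured tissue and of the junction between muscle and tendon. Tnc was at 3.12 and 3.28 CPM in Control and at 13.5 CPM in both Surgery libraries, a log2 difference of 2.07 ± 0.53 (SE) with an adjusted p of 0.0633. Thrombospondin 4 is a pentamer of tendon and muscle matrix. Thbs4 gave the largest difference of the 8, with 42.4 and 41.2 CPM in Control against 220.1 and 214 CPM in Surgery, a log2 difference of 2.38 ± 0.61 (SE; adjusted p = 0.0683). Neither gene had overlapping groups, and neither passed the threshold over all libraries. Without both replicates 4 both passed, at adjusted p of 0.0295 for Tnc and 0.0380 for Thbs4 (edgeR, 17182 genes tested, 4.22% of them called). Neither group holds a replicate 4, and the pMT library left out was the highest of its group for both genes. These calls are thus not independent of that choice.

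Sparc encodes a collagen-binding protein needed for fibril assembly and was by far the most abundant of the 8. It measured 959 and 905 CPM in Control and 1525 and 1509 CPM in Surgery, with a log2 difference of 0.70 ± 0.22 (SE; adjusted p = 0.115). Thbs3, a pentameric thrombospondin like Thbs4, was at 3.90 and 3.83 CPM in Control and at 7.51 and 8.14 CPM in Surgery (log2 difference 1.02 ± 0.29, adjusted p = 0.0902). Both genes were higher in each Surgery library than in each Control library, without a call.

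Spp1 encodes osteopontin, a ligand of integrins and CD44 that activated macrophages and regenerating muscle make. It was the least abundant, with 30 to 40 counts per Control library and 108 to 115 per Surgery library, or 0.473 to 0.667 CPM against 1.47 to 1.49 CPM. Its log2 difference of 1.38 ± 0.88 (SE) had an adjusted p of 0.459. Thbs1 encodes thrombospondin 1, an activator of latent TGF-beta and an inhibitor of vessel growth. It was at 7.19 and 6.97 CPM in Control and at 6.65 and 7.19 CPM in Surgery, so the groups overlapped (log2 difference −0.03 ± 0.70, adjusted p = 0.986).

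These calls rest on few libraries. The count of called genes was 0 when any 1 of the 2 Control or 2 Surgery replicates was left out. It was 7 when only these 4 libraries were fitted, a fit that called 5289 of all genes in place of 266.

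The comparison of pMT with Surgery asked what followed the injection of mitochondria. Postn and Thbs2 fell, 2 of 8 against 1.55% of all genes called lower, and 7 of 8 had no overlap between groups, against 30.4% of all genes. The median log2 fold change of the 8 was −0.74 against 0.02 over all genes tested.

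The pMT libraries held 55.2, 84.6, 108 and 64.1 CPM of Postn. Even the highest was below both Surgery libraries, and the lowest was just under the Control libraries. The log2 fold change against Surgery was −1.87 ± 0.35 (SE; adjusted p = 0.0147). Thbs2 measured 20.9, 19.9, 22.8 and 17.05 CPM in the pMT libraries, all of them below Surgery and replicate 4 within the Control range. Its log2 fold change was −0.71 ± 0.16 (SE; adjusted p = 0.0352).

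Thbs4 was at 48.7, 47.8 and 50.1 CPM in pMT replicates 1 to 3 and at 111 CPM in replicate 4. The first 3 lay just above Control and replicate 4 lay between Control and Surgery, which left a log2 difference of −1.75 ± 0.49 (SE) with an adjusted p of 0.0891. Tnc showed the same replicate as the highest, with 3.08, 3.13, 4.04 and 6.77 CPM (−1.67 ± 0.42, adjusted p = 0.0617). With both replicates 4 left out, Tnc (−1.99, adjusted p = 0.0249) and Thbs4 (−2.17, adjusted p = 0.0373) joined Postn and Thbs2 as lower, 4 of 8 against 3.15% of all genes called. The pMT library left out was the highest of its group for Tnc and Thbs4, so these 2 calls are not independent of that choice.

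The remaining members did not pass in this comparison. Sparc ranged from 1005 to 1206 CPM in the pMT libraries (log2 difference −0.50 ± 0.18, adjusted p = 0.208) and Thbs3 from 4.06 to 5.42 CPM (−0.77 ± 0.24, adjusted p = 0.136). For both the pMT libraries lay below both Surgery libraries. Those of Thbs1, at 1.87 to 5.80 CPM, did too (log2 difference −0.54 ± 0.60, edgeR adjusted p = 0.763). Spp1 took 1.06, 1.96, 3.64 and 2.38 CPM and was the member whose mean was higher in pMT than in Surgery (0.61 ± 0.72, adjusted p = 0.776), with overlapping groups.

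By the study's rule for differentially expressed genes, a fold change of at least 2 and here an unadjusted p under 0.05 in edgeR's exactTest on the Surgery and pMT libraries alone, 3 of the 8 were lower in pMT: Postn (log2 fold change −1.88), Thbs4 (−1.76) and Tnc (−1.67). Their adjusted p-values in that test ran from 9.08e-11 for Postn to 5.01e-05 for Thbs4, and 493 of 16609 genes (2.97%) met the rule as lower. The study reported fewer lower genes for this comparison, so its own list may differ. The same 3 met the rule with the adjusted p. The rule left out Thbs2, whose fall was smaller than 2-fold. In the fit over all libraries, the calls of Postn and Thbs2 were lost when Surgery replicate 1, Surgery replicate 2 or pMT replicate 1 was left out.

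**Figure D2:**
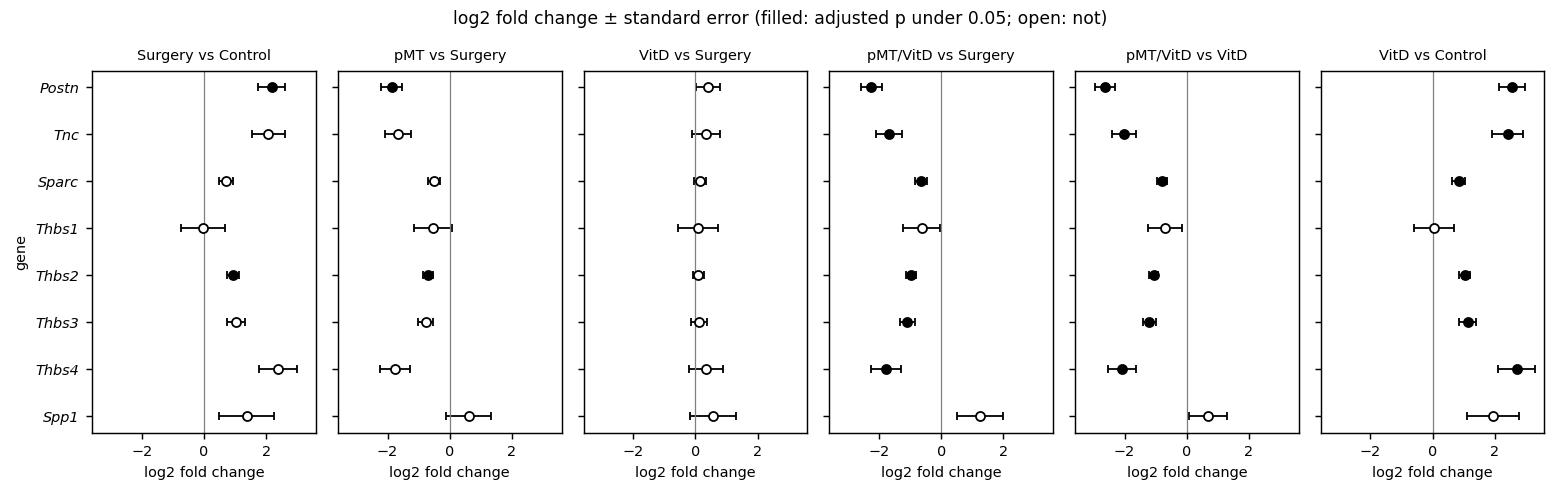
log2 fold change with its standard error for the 8 genes in 6 comparisons, where filled points passed an adjusted p of 0.05. Postn, Tnc and Thbs4 reach past 2 on the log2 scale in Surgery and VitD against Control, and Thbs1 stays within 0.71 of 0 in each panel.

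VitD alone was then compared with Surgery. None of the 8 was called, and neither was any other gene (0%; edgeR, 139 genes at an unadjusted p under 0.05). DESeq2 called 1 gene, which was not among the 8. The VitD libraries were widely spread, with Postn at 613, 318 and 196 CPM and Thbs4 at 491, 220.2 and 113 CPM. Replicate 1 was above Surgery, replicate 2 close to it and replicate 3 below it. The log2 differences ran from 0.09 to 0.56 with all adjusted p at 1. Leaving out VitD replicate 1 turned 7 of the 8 below 0, with Spp1 the exception, and Thbs4 went from 0.34 to −0.38. The direction of the members in VitD against Surgery thus rested on that 1 library.

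Against Control the VitD libraries had 6 of the 8 genes higher (5.48% of all genes called higher): Thbs4 by a log2 fold change of 2.72 ± 0.60 (SE; adjusted p = 0.0169), Postn by 2.57 ± 0.42 (0.00498), Tnc by 2.42 ± 0.51 (0.0137), Thbs3 by 1.14 ± 0.27 (0.0229), Thbs2 by 1.03 ± 0.18 (0.00581) and Sparc by 0.84 ± 0.20 (0.0232). Each VitD library was above both Control libraries for all 6, and 52.1% of all genes had no overlap between these groups. The count was 0 without either Control replicate and 1 when only the VitD and Control libraries were fitted, with 96 of all genes called in place of 1492. The Control libraries are shared with the comparison of Surgery with Control.

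The pMT/VitD libraries were compared with Surgery, with VitD and with pMT. Against Surgery, 6 of 8 genes were lower, compared with 5.03% of all genes called lower. Postn was at 62.7, 53.8, 44.3 and 80.7 CPM, so the 4 libraries lay around the Control level and far below both Surgery libraries. Its log2 fold change was −2.24 ± 0.35 (SE; adjusted p = 0.00271). Thbs2, at 14.4, 16.5, 14.8 and 21.3 CPM, gave −0.97 ± 0.16 (adjusted p = 0.00322).

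Tnc and Thbs4 divided the pMT/VitD libraries in the same way. Tnc was at 6.11 and 5.52 CPM in replicates 1 and 2 and at 2.75 and 2.35 CPM in replicates 3 and 4, and Thbs4 was at 98.1 and 74.2 against 45.6 and 38.4 CPM. All were below Surgery, where 36.8% of all genes had no overlap between the groups. The log2 fold changes were −1.68 ± 0.42 for Tnc (adjusted p = 0.0303) and −1.76 ± 0.49 for Thbs4 (0.0438). Thbs3 (−1.09 ± 0.24, adjusted p = 0.0181) and Sparc (−0.65 ± 0.18, 0.0480) were the other called members. Sparc passed by a small margin. Without Surgery replicate 2 the count fell to 1, and it was 3 when every gene with a count was tested.

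Against VitD, pMT/VitD had 6 of 8 genes lower, beside 12.2% of all genes called lower. The log2 fold changes were −2.64 ± 0.33 for Postn (SE; adjusted p = 0.000292), −2.10 ± 0.45 for Thbs4 (0.00575), −2.03 ± 0.39 for Tnc (0.00312), −1.21 ± 0.22 for Thbs3 (0.00224), −1.07 ± 0.14 for Thbs2 (0.000378) and −0.79 ± 0.16 for Sparc (0.00480). Every pMT/VitD library was below every VitD library for these 6 genes, against 28.6% of all genes without overlap. The pMT/VitD libraries are shared with the comparison against Surgery.

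Neither pMT (adjusted p = 1 for all 8) nor pMT/VitD (adjusted p of 0.906 to 0.977) had a member called against Control, and in both comparisons 0% of all genes were called at this threshold (edgeR, 528 and 496 genes at an unadjusted p under 0.05; DESeq2 also called 0). The largest log2 differences were those of Spp1, 1.99 ± 0.81 in pMT and 2.62 ± 0.83 in pMT/VitD (SE). Each library of both groups was above both Control libraries for Spp1. In pMT, 5 of 8 members had no overlap with Control, against 15.2% of all genes. Spp1, Sparc, Thbs3 and Thbs4 were above Control in every pMT library, and Thbs1 was below it. In pMT/VitD it was 1 of 8, against 9.2% of all genes. Log2 differences of the 7 members other than Spp1 lay between −0.65 and 0.62. Without both replicates 4, Thbs1 was called lower in pMT/VitD than in Control (−1.63 ± 0.22, adjusted p = 0.0134), where 0.064% of all genes were called.

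Between pMT/VitD and pMT no member was called and 0% of all genes were (edgeR, 1737 genes at an unadjusted p under 0.05), with log2 differences from −0.37 for Postn to 0.63 for Spp1. The interaction, which asks whether the pMT difference was the same with and without VitD, also had no member and 0% of all genes called (888 genes at an unadjusted p under 0.05). Its values ran from −0.76 for Postn to 0.07 for Spp1. DESeq2 called no member in either, with 89 genes called in the first and 0 in the second.

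Like some calls of Tnc, Thbs4 and Thbs2, those of Thbs1 turned on 2 libraries. Thbs1 was at 5.80, 5.76 and 5.61 CPM in pMT replicates 1 to 3 and at 1.87 CPM in replicate 4. In pMT/VitD it was at 2.01, 2.30 and 2.43 CPM in replicates 1 to 3 and at 11.2 CPM in replicate 4. Replicate 4 of pMT thus had the level of the other pMT/VitD libraries, and replicate 4 of pMT/VitD was above all other 14 libraries.

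Without both replicates 4, Thbs1 was lower in pMT/VitD than in pMT (−1.34 ± 0.20 on the log2 scale, adjusted p = 0.00269; 18.3% of all genes called), Surgery (−1.63 ± 0.22, adjusted p = 0.000778; 20.1%) and VitD (−1.72 ± 0.20, adjusted p = 0.000131; 32%). Its interaction was −1.43 ± 0.29 (adjusted p = 0.0349; 1.89%). Thbs2 was then also lower in pMT/VitD than in pMT, by −0.47 ± 0.11 on the log2 scale (adjusted p = 0.0131). The libraries left out are those in which Thbs1 itself stood apart, so these values are not independent of the choice. With all libraries the Thbs1 differences were −0.09 against pMT, −0.62 against Surgery and −0.71 against VitD, with adjusted p of 0.373 or more.

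**Figure D3:**
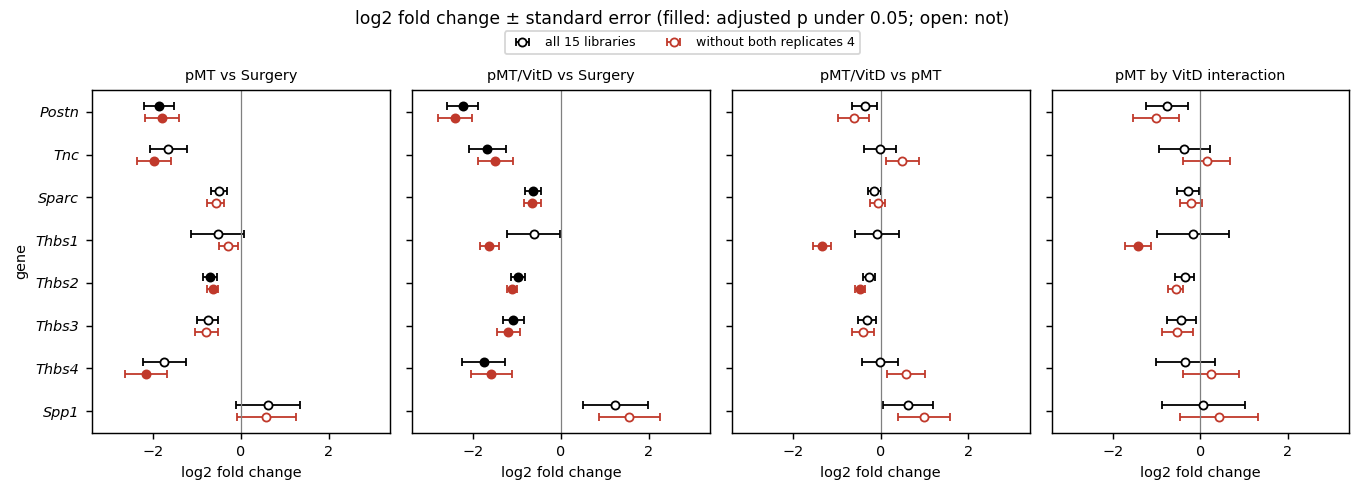
log2 fold change with its standard error for the 8 genes in 4 comparisons, with all 15 libraries and without pMT replicate 4 and pMT/VitD replicate 4; filled points passed an adjusted p of 0.05. Thbs1 moves from −0.09 to −1.34 in pMT/VitD against pMT, while Postn stays filled in both comparisons with Surgery.

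Spp1 differed from the other members in its spread. In pMT/VitD it was at 4.88 and 7.28 CPM in replicates 1 and 2 and at 0.989 and 0.837 CPM in replicates 3 and 4, an 8.71-fold range within 1 group. In VitD it was at 3.16, 1.62 and 1.76 CPM. The highest 2 libraries of all 15 were pMT/VitD replicates 2 and 1, and no comparison called it in the fit over all libraries.

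Levels between genes were compared on the TPM scale. In Control the order was Sparc (558 TPM), Postn (24.9), Thbs4 (16.1), Thbs2 (3.73), Thbs1 (2.44), Thbs3 (1.52), Tnc (0.647) and Spp1 (0.463), and no 2 neighbours overlapped between their 2 libraries. In Surgery the first 4 kept their places at means of 1129, 139, 104 and 8.88 TPM, and Thbs3 (3.83), Tnc (3.08) and Thbs1 (2.96) followed, of which Tnc and Thbs1 overlapped. Sparc was first in all 5 groups, and Postn and Thbs4 overlapped in pMT, pMT/VitD and VitD. Sparc made up 91.4% to 92.2% of the summed TPM of the 8 in Control and 80.8% to 81.3% in Surgery.

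Within the thrombospondins, Thbs4 took 67.7% of the summed TPM in both Control libraries, whereas in Surgery it took 86.4% and 87.5%. The share of Thbs1 was 10.2% to 10.3% in Control and 2.36% to 2.59% in Surgery. In pMT replicates 1 to 3 the Thbs4 share was 68.2% to 69.9%, near Control, but replicate 4 had 87.4%. The pMT/VitD replicates had 88.1%, 83.6%, 76.0% and 59.2%, and the VitD replicates 91.6%, 87.5% and 79.9%. Summed TPM of the 4 genes was 20.6 to 40.1 in Control, pMT and pMT/VitD libraries and 66.8 to 263 in Surgery and VitD libraries. The gap was smaller in CPM, the scale for 1 gene between libraries. There Thbs4 was at 111 in pMT replicate 4 and at 113 in VitD replicate 3.

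**Figure D4:**
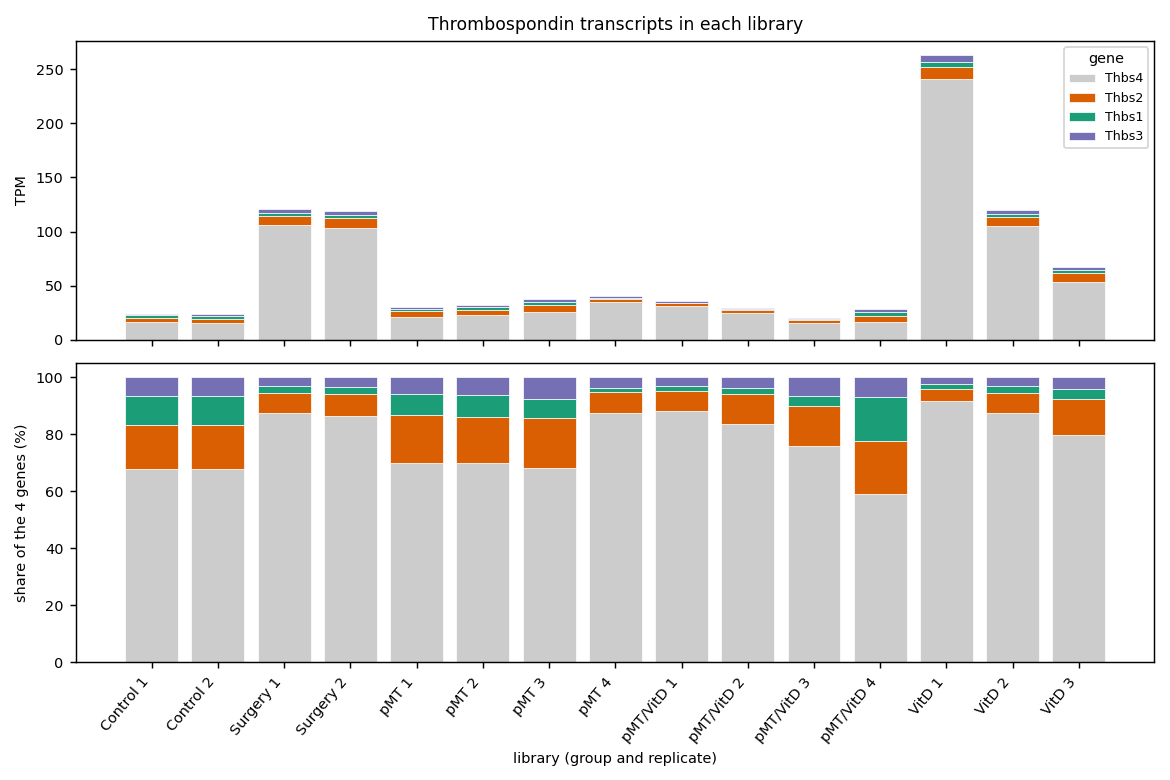
Summed TPM of Thbs1, Thbs2, Thbs3 and Thbs4 in each library (top) and the share of each gene in that sum (bottom, percent). Thbs4 is the largest part of every bar, from 59.2% in pMT/VitD replicate 4 to 91.6% in VitD replicate 1.

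Levels of the members were correlated over the 15 libraries on the log2 CPM scale, as a description, since the libraries share groups. Tnc and Thbs4 had the highest value (Pearson r = 0.989), and the 15 pairs among Postn, Tnc, Sparc, Thbs2, Thbs3 and Thbs4 all lay at 0.770 or above. Thbs1 had an r of 0.143 with Thbs4 and −0.497 with Spp1.

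Among 11398 genes whose mean log2 CPM reached 1, those most like Postn were Col14a1, a collagen that sits on fibrils (r = 0.992), Serpinh1, the collagen chaperone (0.990), and Fcgr2b, an Fc receptor (0.989). Tnc was most like Thbs4, Sfrp2, a secreted Wnt regulator (0.986), and Tnnt2, the troponin T of heart and developing muscle (0.982). Thbs4 was most like Tnc, Bgn, a small proteoglycan (0.989), and Sfrp2 (0.986). Those most like Thbs3 included Col1a2 (0.985) and Col3a1 (0.982), with NEWGENE_621351 (0.984) between them. Sparc was most like Ifi30 and Tnfaip8l2 (both 0.987) and Scpep1 (0.985), and Thbs2 was most like LOC100911403 (0.981), LOC690836 (0.980) and Ms4a4a (0.977).

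A list of 21 other matricellular genes was read beside the members, of which 20 were matched and 16 tested. In Surgery against Control 3 rose, beside 1.25% of all genes called higher, 0 fell and the median log2 fold change was 0.78. They were Ccn5 (listed as Wisp2), a member of the CCN family that lacks the C-terminal domain, by 2.81 ± 0.32 (SE; adjusted p = 0.00112), Fstl1, a follistatin-like protein of the SPARC family, by 0.91 ± 0.20 (0.0376), and Tgfbi, a paralogue of periostin, by 0.86 ± 0.17 (0.0247). In pMT against Surgery 3 fell, beside 1.55% of all genes, and 0 rose: Ccn5 by −2.77 ± 0.25 (adjusted p = 7.1e-05), Tgfbi by −0.75 ± 0.14 (0.0147) and Tnn. In pMT/VitD against Surgery 6 fell (5.03% of all genes), and in VitD against Control 7 rose (5.48%), with none in the other direction. The most abundant of the list, Lgals1 (galectin 1, mean of 869.8 TPM), was called in no comparison, and Fstl1 (72.3 TPM) and Smoc2 (62.9 TPM) passed as lower in pMT/VitD against Surgery.

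Ccn5 separated the groups as Postn did. It was at 2.15 and 1.73 CPM in Control, 14.4 and 12.8 CPM in Surgery, 1.77 to 2.44 CPM in pMT, 1.30 to 2.57 CPM in pMT/VitD and 10.8 to 20.2 CPM in VitD. The lowest Surgery or VitD library was above the highest library of the other groups by a wide margin, replicates 4 included. Tnn, tenascin N, a paralogue of Tnc, had 0 counts in every Control, pMT and pMT/VitD library, 26 to 30 counts in the Surgery libraries and 13 to 107 counts in the VitD libraries. Set against a floor of 3 counts per library, Tnn was at least 7.63-fold higher in Surgery than in Control and at least 7.99-fold higher than in pMT (adjusted p of the fall in pMT = 0.0464). Ccn4 (Wisp1), called higher in VitD than in Control, was also near the floor, with 8 to 29 counts against 0.

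Matrix partners and TGF-beta genes formed a list of 13, all tested. Fn1, which encodes fibronectin (1.06 ± 0.23 on the log2 scale, adjusted p = 0.0360), and Bmp1, the protease that trims procollagen (0.77 ± 0.18, 0.0454), rose in Surgery against Control. In pMT against Surgery 4 fell, Lox, a collagen crosslinking enzyme that periostin helps to activate (−1.46 ± 0.33, adjusted p = 0.0404), Col1a1 (−1.22 ± 0.29, 0.0449), Col1a2 (−1.02 ± 0.24, 0.0458) and Fn1 (−0.80 ± 0.19, 0.0451). In pMT/VitD 8 were lower than in Surgery, with Lox at −2.003 ± 0.34 (adjusted p = 0.00408), and 11 were lower than in VitD. Over all genes, 1.25% were called higher in Surgery against Control and 1.55% lower in pMT against Surgery. The shares lower in pMT/VitD were 5.03% against Surgery and 12.2% against VitD. Col3a1, the most abundant (496 TPM), was at −0.86 ± 0.23 in pMT against Surgery (adjusted p = 0.0769). The median log2 fold change of the list was 0.77 in Surgery against Control and −0.58 in pMT against Surgery.

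Receptors of the members were read in the same way. Of 15 tested, 0 were called in Surgery against Control and 0 in pMT against Surgery (edgeR), with medians of 0.25 and −0.27, and at 1.25% of all genes called higher and 1.55% lower a count of 0 in 15 says little. In pMT/VitD against Surgery 2 were lower, beside 5.03% of all genes, Itga9 (−0.63 ± 0.14, adjusted p = 0.0168), an integrin subunit that binds tenascin C and osteopontin, and Itgb5 (−0.48 ± 0.10, 0.0143). Against VitD 8 were lower, beside 12.2% of all genes, with Cd44, the osteopontin receptor, at −1.11 ± 0.22 (adjusted p = 0.00325). The most abundant receptors were Itgb1, the common beta chain of matrix integrins (76.0 TPM), Cd36, a thrombospondin receptor that also takes up fatty acids (59.2 TPM), and Cacna2d1, a calcium channel subunit that binds thrombospondins (48.5 TPM). None of these 3 passed against Surgery in pMT or pMT/VitD.

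**Figure D5:**
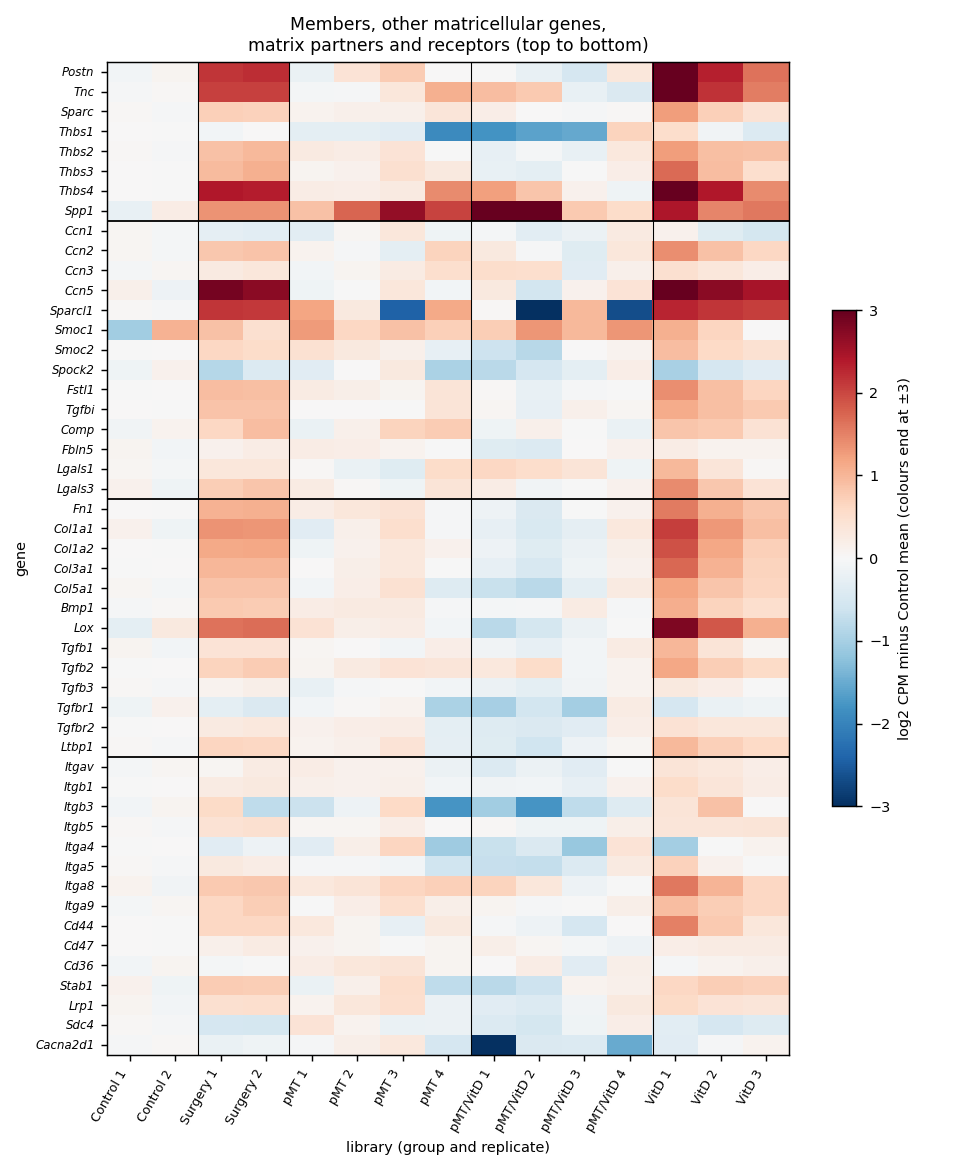
log2 CPM minus the Control mean for the 8 members, 14 other matricellular genes, 13 matrix partners and 15 receptors (rows, blocks from top to bottom) in 15 libraries (columns); colours end at ±3, and Tnn and Ccn4, near the floor, are not drawn. Red in the Surgery and VitD columns runs through most members, Ccn5 and the collagens, and Thbs1 is blue in pMT replicate 4 and pMT/VitD replicates 1 to 3.

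Markers of cell types that make these proteins were given beside them. Their TPM sums are a description, since TPM and CPM differ between libraries. Mean Sparc, for example, went from 558 to 1129 TPM between Control and Surgery but from 932 to 1517 CPM. The summed level of 8 macrophage markers, of which Lyz2 was the most abundant, was 118 TPM in both Control libraries, 297 and 301 in Surgery, 99.9 to 171 in pMT, 90.7 to 138 in pMT/VitD and 240.3 to 445 in VitD. Of these 8, Lyz2, Trem2, Gpnmb and Adgre1 (4) rose in Surgery against Control and fell in pMT against Surgery, and all 8 fell in pMT/VitD against Surgery. Gpnmb had the largest log2 fold changes of these 4, 1.85 ± 0.36 with surgery (SE; adjusted p = 0.0267) and −1.53 ± 0.29 in pMT (0.0174). The 6 fibroblast markers, led by Dcn, summed to 1008 to 1059 TPM in Control, 1802 to 1834 in Surgery, 807 to 1418 in pMT, 665 to 1183 in pMT/VitD and 1638 to 2728 in VitD. Of these 6, 0 were called in Surgery against Control, Col1a1 was lower in pMT, and Col1a1, Col3a1 and Lum were lower in pMT/VitD than in Surgery. Over all genes, 1.25% were called higher in Surgery against Control, and 1.55% in pMT and 5.03% in pMT/VitD lower than in Surgery. The fibroblast markers did not rise evenly with surgery. Col3a1 stood at 310 to 311 TPM in Control and 767 to 771 in Surgery, and Dcn at 488 to 550 and 567 to 597. In the fit, 5 of the 6 were higher and 1 lower in Surgery, with a median log2 fold change of 0.40. The part of either cell type in the members' differences was not tested.

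Regenerating muscle markers, 5 genes led by Myh8, summed to 79.1 to 84.3 TPM in Control, 205 to 206 in Surgery, 46.0 to 153 in pMT, 47.5 to 89.1 in pMT/VitD and 143 to 408 in VitD, and Myog, a factor of muscle differentiation, rose with surgery (log2 fold change 1.29 ± 0.20, adjusted p = 0.00817). Myog and Myh3, the embryonic myosin heavy chain, were both lower in pMT than in Surgery (−1.01 ± 0.16, adjusted p = 0.00744, and −3.12 ± 0.66, 0.0301), and both were also lower in pMT/VitD than in Surgery and in VitD. Of the 5, 1 was called in Surgery against Control (1.25% of all genes higher) and 2 in pMT against Surgery (1.55% lower). Without regard to calls, 3 were higher and 2 lower in each of these comparisons, with median log2 fold changes of 0.26 and 0.00085. Over all genes, 5.03% were called lower in pMT/VitD than in Surgery and 12.2% lower than in VitD. The part of these 5 markers in the members' differences was not tested. Tendon markers, 4 genes led by Scx, were highest in pMT replicate 4 (46.9 TPM) and in pMT/VitD replicates 1 and 2 (43.3 and 40.6 TPM), against 21.1 to 30.1 TPM in the other libraries. These 3 were also the libraries with the highest Tnc and Thbs4 in their groups. Whether tendon in the sample took part in those levels was not tested. No tendon marker was called against Surgery in pMT or pMT/VitD. With 334 and 1279 of 17201 genes called there, a count of 0 in 4 says little.

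The other lists gave the following sums. Endothelial markers (4 genes, led by Pecam1) lay between 52.7 and 124 TPM, mural cell markers (4, led by Rgs5) between 65.4 and 217, Schwann cell markers (4, led by Pmp22) between 61.0 and 124, adipocyte markers (4, led by Adipoq) between 12.4 and 30.0 and platelet markers (4, led by Pf4) between 19.5 and 72.7. In Surgery against Control 0 endothelial, mural, Schwann cell and adipocyte markers were called. With 266 of 17201 genes called in that comparison, a count of 0 in lists of 4 says little. Pf4, a platelet chemokine that macrophages can also make, was higher (1.25% of all genes). Pf4 was lower in pMT and in pMT/VitD than in Surgery, and Pmp22 was lower in pMT/VitD. Over all genes, 1.55% were called lower in pMT and 5.03% in pMT/VitD. Markers outside the naming rule, such as Gpnmb, Myog, Myh3 and Lum, were named after their values were seen. None of the 7 myofibre markers was called in Surgery against Control or in pMT or pMT/VitD against Surgery. Of 17201 genes, 266, 334 and 1279 were called in these comparisons, so 0 in 7 says little.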

How the data were processed

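RNA sequencing of multifidus muscle used paired-end reads from an Illumina NovaSeq instrument. Before deposit the authors ran Trimmomatic 0.38 for trimming, HISAT2 2.1.0 for alignment to rn6, SAMtools 1.9 for sorting and StringTie 2.1.3b for counting over RefSeq genes. They deposited raw read counts per gene, TPM values scaled by the authors per length and library, and FPKM values, which were not used. Handling of strand and of reads shared by several genes is not given in the sources used here.

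Counts were tested in R 4.3.3 with edgeR 4.0.16 (TMM, filterByExpr, glmQLFit with robust estimation, glmQLFTest, Benjamini-Hochberg over all genes tested, called at an adjusted p under 0.05) on all 15 libraries. SE is the absolute log2 fold change divided by the square root of F. The study's rule used edgeR's exactTest. Its methods name Benjamini-Hochberg adjustment and then give the rule with a plain p, which was read here as unadjusted, with the adjusted p as an alternative. CPM compares 1 gene between libraries and TPM compares genes. Sums of TPM over several genes are given per library as a description. Depth was 52342134 to 73557878 counts, and intervals cover the spread between libraries. The test was checked on simulated data.

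Members and lists were chosen with earlier results of these data known. A further gene of the matricellular list is not reported here. Named genes were all 8 members, the 3 most abundant of each related list, up to 2 called genes per direction and comparison with the largest change, the most abundant cell type markers, markers at 0 throughout, and the 3 genes most like each called member. Fstl1, Tgfbi, Bmp1, Col1a2, Fn1, Itgb5 and the cell type markers given with calls complete small counts and were partly named after their values were seen. Alternatives tried were DESeq2 1.42.0, scaling by RLE or by library size, other filters, only the groups compared, a replicate block, removal of the length trend, leaving out both replicates 4 and leaving out each replicate.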

Additional observations from a re-analysis of the deposited data

Results flagged for a closer look

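In groups of 4 libraries, 4 of 16 sets of values (8 genes in 2 groups) had a highest or lowest library far from the rest by Dixon's test, where chance would give 0.8. Sparc was at 1206 CPM in pMT replicate 4 while pMT replicates 1 to 3 ranged from 1005 to 1033 CPM. Thbs4 was at 111 CPM in the same library against 47.8 to 50.1 CPM. Thbs1 was at 1.87 CPM there against 5.61 to 5.80 CPM, and at 11.2 CPM in pMT/VitD replicate 4 against 2.01 to 2.43 CPM in the other pMT/VitD libraries. Thbs1 thus moved the opposite way to Sparc and Thbs4 in pMT replicate 4. Tendon markers were highest in that library (46.9 TPM), and their part in these values was not tested.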

How the results depend on the processing

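The 8 members gave 80 log2 fold changes over the comparisons of 2 groups and the interaction, of which 20 changed sign under at least 1 alternative, and none of these 20 belonged to a called gene. The rule of the study was met by 3 members under every alternative run, leaving out each replicate included. Counts of called members moved as follows. With library size scaling Surgery against Control had 6, and with DESeq2 also 6. Testing any gene with a count left 3 in pMT/VitD against Surgery. With both replicates 4 left out the counts were 4 in Surgery against Control, 4 in pMT against Surgery, 2 in pMT/VitD against pMT, 1 in pMT/VitD against Control and 1 in the interaction. Fitting only the groups compared gave 7 in Surgery against Control, 5 in pMT against Surgery and 1 in VitD against Control. The last 2 settings also used fewer libraries, and the cause of these shifts was not tested. RLE scaling, a minimum of 10 counts in every library and removal of the length trend moved no count by more than 1.5 times. Counts over all genes moved more. They were 266 in Surgery against Control (106 with the block to 5289 with only these groups fitted), 334 in pMT against Surgery (78 with the block to 747 with DESeq2), 1279 in pMT/VitD against Surgery (350 with the block to 3462 without both replicates 4), 3766 in pMT/VitD against VitD (1816 with only these groups to 5758 with library size scaling), 1492 in VitD against Control (96 with only these groups to 2795 with library size scaling) and 2035 across the 5 groups (1080 with the block to 5124 without both replicates 4). In pMT/VitD against pMT the count went from 0 to 3136 without both replicates 4.

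Replicate numbers were checked for pairing. Of 24 pairs of same-numbered libraries in different groups, 5 had deviations that correlated above 0.1. The range was −0.81, between the 2 replicates 4, to 0.33. No general pairing by number was seen, but deviations within a group of 2 libraries mirror each other, so the check cannot settle it. With a replicate block the counts were 0 in Surgery against Control, 0 in pMT against Surgery and 2 in pMT/VitD against Surgery, and no other count moved by more than 1.5 times.

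Leaving out 1 replicate at a time gave 0 to 6 called members in Surgery against Control, 0 to 6 in pMT against Surgery, 1 to 6 in pMT/VitD against Surgery, 0 to 6 in VitD against Control, 6 to 7 in pMT/VitD against VitD and 6 to 7 across the 5 groups. With Control and Surgery at 2 libraries each, the lone library left is assumed to vary like the other groups.

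Log2 fold changes that changed sign were those of genes not called. In pMT/VitD against pMT, Thbs4 was at 0.0100 with RLE factors, 0.0095 with DESeq2, 0.053 with the length trend removed and 0.58 without both replicates 4, and Tnc was at 0.00013 with RLE factors, 0.17 with the length trend removed and 0.50 without both replicates 4. With library size scaling Thbs1 was at 0.23 in Surgery against Control, Sparc at −0.0035 in pMT/VitD against Control and Spp1 at −0.19 in the interaction. With the length trend removed Thbs2 was at 0.12 in pMT/VitD against Control and Spp1 at −0.086 in the interaction, where the block gave −0.47. Without both replicates 4 the interaction was 0.14 for Tnc and 0.23 for Thbs4.

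Leaving out 1 replicate also changed signs. In VitD against Surgery the ranges were −0.15 to 0.70 for Postn, −0.18 to 0.64 for Tnc, −0.12 to 0.31 for Sparc, −0.22 to 0.27 for Thbs1, −0.038 to 0.16 for Thbs2, −0.27 to 0.35 for Thbs3 and −0.38 to 0.71 for Thbs4, with the sign changed by VitD replicate 1 each time. In pMT/VitD against pMT they were −1.08 to 0.16 for Thbs1, −0.26 to 0.29 for Tnc, −0.29 to 0.39 for Thbs4 and −0.023 to 0.96 for Spp1. In pMT/VitD against Control they were −0.22 to 0.052 for Postn and −0.15 to 0.031 for Thbs2. Thbs1 ranged from −0.089 to 0.022 in Surgery against Control and from −0.25 to 0.24 in VitD against Control. In the interaction the ranges were −0.58 to 0.44 for Spp1, −0.72 to 0.38 for Thbs4, −1.17 to 0.14 for Thbs1 and −0.66 to 0.16 for Tnc. Depth limited Spp1 most, with 30 to 40 counts in a Control library.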
